A study of Homo sapiens with 4 samples.

Results

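TP63, SOX2, KLF4, KLF5, GRHL2, TFAP2A, TFAP2C, NOTCH1 and EHF, 9 regulators of the squamous epithelial lineage, were compared between RNA precipitated with an antibody to TIA1 and total RNA of KYSE180 cells. KYSE180 is an established cell line of esophageal squamous cell carcinoma (ESCC), and TIA1 is an RNA-binding protein that shuttles between the nucleus and the cytoplasm. The genes were taken by symbol, through every non-control probe whose listed transcript belonged to one of them. They were 9 of 24154 genes and 12 of 50599 probes on a single-colour whole human genome microarray. The TIA1 RIP group (ribonucleoprotein immunoprecipitation, n = 2) holds RNA that came down with an anti-TIA1 antibody from cytoplasmic lysates of KYSE180 cells. The total RNA group (n = 2) holds total RNA of the same line. The labels do not say whether total RNA came from the cytoplasmic lysate or from whole cells. A difference of compartment therefore cannot be told apart from precipitation with TIA1. The question of the study was which mRNAs are bound by TIA1 in ESCC cells. No treatment separates the groups, all RNA came from 1 cell line, and the labels do not say whether replicates came from separate cultures, so p-values measure only the spread between these samples. The series holds no array of IgG immunoprecipitates, and the RIP sequencing of the study was not analysed here. RNA that sticks to the beads therefore cannot be told apart from RNA bound by TIA1.

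Stratified squamous epithelium, such as the lining of the esophagus, grows from a basal layer whose cells stop dividing and mature as they move upwards. p63 and SOX2 hold the basal state, KLF5 and the AP-2 and Grainyhead-like factors keep epithelial genes on, and KLF4, EHF and Notch signalling act in cells that leave the basal layer. TIA1 binds U-rich stretches of mRNA, often in the 3′ untranslated region (3′UTR), and represses translation or alters the stability of the mRNAs it holds.

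The most U-rich stretches of 30 bases in the 3′UTRs of 5 of the genes are shown because U-rich sequence is what TIA1 is known to bind. KLF5, TP63 and TFAP2C were past 2.5-fold above GAPDH in all 4 pairs of arrays. KLF4 and NOTCH1 were not past it on the group means, though each was past it in some pairs. Sequences are of the transcript strand, 5′ to 3′, from GRCh37, with T written for U, and capitals mark runs of at least 5 T and the letters ATTTA.
KLF5: ttttgTTTTTaaaatattgtttatctttat
TP63: tttgtattttgattaTTTTTTTTTTcttct
TFAP2C: TTTTTTTctccTTTTTTTTTTTTTTTTTTT
KLF4: ttcagtaTTTTTTacttttcacactgtctt
NOTCH1: attttaaTTTTTTTTagtATTTATTTAtgt
These stretches lie in the last exon of each gene. The KLF5 stretch (chr13:73651299-73651328, plus strand, exon 4 of 4) holds 20 T, and the TP63 stretch (chr3:189614062-189614091, plus strand, exon 14 of 14) holds 23 T. The TFAP2C stretch (chr20:55213705-55213734, plus strand, exon 7 of 7) holds 27 T, with a run of 19. The KLF4 stretch (chr9:110247962-110247991, minus strand, exon 5 of 5) holds 17 T, and the NOTCH1 stretch (chr9:139390364-139390393, minus strand, exon 34 of 34) holds 21 T. Each stretch was picked as the most U-rich of its 3′UTR, and stretches of other genes were not read. The presence of U-rich sequence in all 5 genes therefore does not bear on binding by TIA1.

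The 4 arrays were on 1 slide and in 1 scan, and they were not alike. Total RNA 2 was the dimmest, with a 75th percentile of 69.9 against 714 for total RNA 1, 1514 for TIA1 RIP 1 and 1271 for TIA1 RIP 2, and 32.0% of its spots were well above background against 45.7% to 48.3% on the others. Levels are given below as log2 of the processed signal minus the 75th percentile of the array, and differences between levels are log2 ratios. Over 13039 genes tested, Pearson's r between arrays was 0.93 for the TIA1 RIP pair and 0.73 for the total RNA pair, which share probes and base composition. Across the groups, r with total RNA 1 was 0.94 for TIA1 RIP 1 and 0.87 for TIA1 RIP 2. With total RNA 2 it was 0.67 and 0.72, so total RNA 1 was closer to both TIA1 RIP arrays than to total RNA 2. Replicate 2 also stood apart from replicate 1 in the same way in both groups: 262 genes were at least 4-fold higher in replicate 2 in TIA1 RIP and in total RNA (2.01% of genes tested) and 83 were at least 4-fold lower in both (0.637%), while 2 and 9 genes went opposite ways. This count was chosen after the values had been seen, and its cause was not tested. All 20 listed squamous epithelial markers were kept, 11 of them with a mean level above 4, among them KRT5, KRT6A, SFN and S100A2, and 2 with a mean level below 0, among them KRT4, which was not well above background on total RNA 1. By the same rule, 13039 of all 24154 genes on the array were detected. Of the 11 fibroblast markers, 3 were detected, TWIST1, ACTA2 and COL1A1, and COL1A2, COL3A1, DCN, LUM and PDGFRB were among those not detected. TWIST1 was the highest of the 3, with a level of -0.44 and -0.31 in TIA1 RIP and -1.41 and 0.37 in total RNA. Of the 9 blood and endothelial markers, 5 were detected, CD14, CDH5, PTPRC, SPI1 and VWF, with a highest level of 1.24 for CD14 on total RNA 2, and CD3E and HBB were not detected.

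All 9 regulators were detected, 7 of them on all 4 arrays. TFAP2A and EHF were not well above background on total RNA 2, as for 26.1% of genes tested, and were kept through the TIA1 RIP arrays. Relative to GAPDH, an abundant mRNA that the study's methods take as unbound by TIA1, 7 of the 9 were past 2.5-fold higher in TIA1 RIP on the group means, from 3.61-fold for GRHL2 to 14.4-fold for KLF5. KLF4 (2.46-fold) and NOTCH1 (2.43-fold) stood just under that fold, and TFAP2A and EHF were at least 3.86-fold and 3.43-fold higher with total RNA 2 at its detection limit. Of the 9, 0 were past 2.5-fold lower than GAPDH (1.62% of genes tested). Of all genes tested, 72.4% were past 2.5-fold higher, so the share among the regulators was near that of the whole array. GAPDH itself was lower in TIA1 RIP, with levels of 6.49 and 6.69 in TIA1 RIP and 7.67 and 9.63 in total RNA and a log2 ratio of -2.06 ± 0.93 (SE, adjusted p = 0.776 from limma). On the 75th percentile scale, with no reference gene, limma with Benjamini-Hochberg adjustment found 0 of the 9 past an adjusted p of 0.05 in either direction, as for all genes (0% higher and 0% lower). At an unadjusted p under 0.05 there were 144 genes higher (1.1%) and 524 lower (4.02%), and 0 of these were regulators. Log2 ratios of the 9 ran from -0.78 for NOTCH1 to 1.79 for KLF5, with SE from 0.77 to 1.44. Only KLF5 was past 2.5-fold higher (12% of genes tested) and 0 were past 2.5-fold lower (14.3%). Only KLF5 was higher in both TIA1 RIP arrays than in both total RNA arrays (19.4% of genes tested), and only GRHL2 was lower (21.7%).

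**Figure D1:**
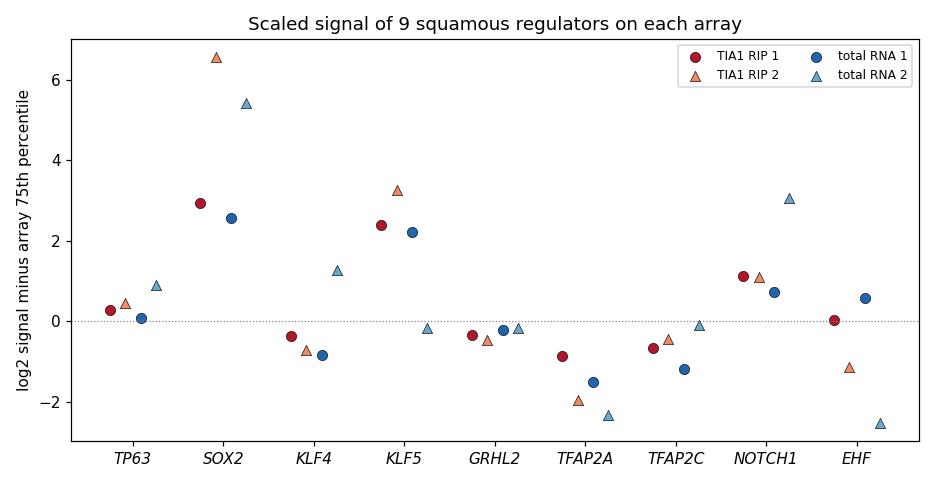
Level of each regulator on each array, as log2 signal minus the 75th percentile of the array, with red for TIA1 RIP, blue for total RNA, circles for replicate 1 and triangles for replicate 2 (1 value per array). SOX2 was 3.62 higher on TIA1 RIP 2 than on TIA1 RIP 1 and 2.86 higher on total RNA 2 than on total RNA 1, while KLF4, KLF5, NOTCH1 and EHF stood apart on total RNA 2, where EHF was not well above background.

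TP63 encodes p63, the p53-family factor that founds and maintains the basal layer of stratified epithelia (chr3:189349178-189615065, plus strand). Its level was 0.28 and 0.44 on TIA1 RIP arrays 1 and 2, and 0.077 and 0.90 on total RNA arrays 1 and 2. The TIA1 RIP arrays lay between the total RNA arrays, so the groups overlapped. The log2 ratio was -0.13 ± 0.80 (SE, adjusted p = 0.973 from limma), and its sign turned to 0.18 with the median of the array as the scale. Relative to GAPDH it was 3.82-fold higher in TIA1 RIP, and the log2 enrichment was 1.38 and 1.34 against total RNA 1 and 2.53 and 2.48 against total RNA 2. TP63 was past 2.5-fold (1.32 on the log2 scale) in all 4 pairs, in the pairs with total RNA 1 by a small margin. The single TP63 probe is listed under NM_003722, and isoforms of p63 were not told apart.

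SOX2, a factor with an HMG box that is amplified in many squamous carcinomas, lies in a single exon (chr3:181429713-181432224, plus strand). Its level was 2.93 and 6.56 on TIA1 RIP arrays 1 and 2, and 2.55 and 5.41 on total RNA arrays 1 and 2. Both replicate 2 arrays were high and both replicate 1 arrays low, and the spread between replicates was larger than the difference between the groups. The log2 ratio was 0.76 ± 1.44 (SE, adjusted p = 0.903 from limma), the widest error among the 9 regulators. It was 0.38 in replicate 1 and 1.14 in replicate 2, but 4.002 between TIA1 RIP 2 and total RNA 1 and -2.48 between TIA1 RIP 1 and total RNA 2. Relative to GAPDH it was 7.06-fold higher in TIA1 RIP, and it was past 2.5-fold in 3 of 4 pairs, with 0.66 on the log2 scale in the pair of TIA1 RIP 1 with total RNA 2.

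SOX2 was higher on replicate 2 by 3.62 in TIA1 RIP and by 2.86 in total RNA. Of all genes tested, 93 (0.713%) differed at least as much as the smaller of these in both groups, and SOX2 was the only regulator among them. Each array reads the pooled RNA of many cells, so fewer cells with SOX2 and less SOX2 RNA per cell cannot be told apart. Some genes of the lists used here were also at least 4-fold higher on replicate 2 in both groups. They included NOTCH3 (by 3.19 in TIA1 RIP and 5.23 in total RNA) and the keratin KRT13 (by 3.995 and 4.92). The SOX2 relative SOX21 was higher by 2.91 in TIA1 RIP. In total RNA it was higher by at least 5.21, since it was not well above background on total RNA 1. BNC1, which encodes a zinc-finger protein, was lower on replicate 2 by 3.69 in TIA1 RIP. In total RNA it was lower by at least 2.32, since it was not well above background on total RNA 2. The AP-1 subunit FOSL1 differed by -3.66 and -2.75. None of the 26 detected Notch pathway genes outside the receptors was past 4-fold in both groups. SOX2-OT, a long noncoding RNA on the same strand that spans SOX2 (chr3:180707550-181554668), was well above background on TIA1 RIP 2 only, with a level of 0.44. It was -4.13 on TIA1 RIP 1, -5.48 on total RNA 1 and -1.94 on total RNA 2, not well above background on any of these.

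**Figure D2:**
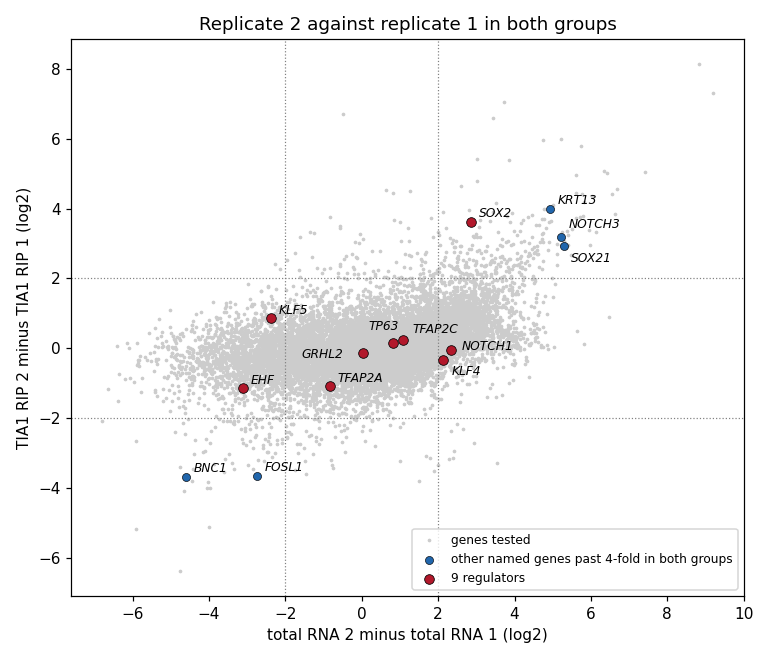
Replicate 2 minus replicate 1 in total RNA (x axis, log2) and in TIA1 RIP (y axis, log2) for 13039 genes (grey), the 9 regulators (red) and other genes named in the text that were past 4-fold in both groups (blue), with dotted lines at 4-fold. SOX2 lies at 2.86 and 3.62 among the genes higher on replicate 2 in both groups, while the other 8 regulators differed by less than 4-fold in TIA1 RIP.

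KLF5 promotes proliferation of basal epithelial cells (chr13:73629114-73651679, plus strand). Its level was 2.39 and 3.25 on TIA1 RIP arrays 1 and 2, and 2.22 and -0.16 on total RNA arrays 1 and 2. Both TIA1 RIP arrays were higher than both total RNA arrays, by 0.17 and 1.03 against total RNA 1 and by 2.55 and 3.41 against total RNA 2. The log2 ratio was 1.79 ± 1.02 (SE, 95% confidence interval -0.61 to 4.19, adjusted p = 0.776 from limma), higher than that of 94.5% of genes tested. Relative to GAPDH, KLF5 was 14.4-fold higher in TIA1 RIP and past 2.5-fold in all 4 pairs, with log2 enrichments of 1.35 and 2.00 against total RNA 1 and 5.70 and 6.35 against total RNA 2. Most of its difference came from total RNA 2: against total RNA 1 alone the log2 ratio of the means was 0.60, and against total RNA 2 alone it was 2.98 (adjusted p = 0.0295 from limma, with the lone total RNA array taken to vary like the other group, a setting in which 29.9% of genes tested passed).

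KLF4, a relative of KLF5 that switches on barrier genes in suprabasal cells (chr9:110247133-110252763, minus strand), had a different pattern. Its level was -0.38 and -0.72 on TIA1 RIP arrays 1 and 2, and -0.85 and 1.27 on total RNA arrays 1 and 2. Both TIA1 RIP arrays lay above total RNA 1 and below total RNA 2, so the groups overlapped. Between the groups the log2 ratio was -0.76 ± 0.96 (SE, adjusted p = 0.849 from limma), with 0.30 against total RNA 1 alone and -1.82 against total RNA 2 alone. Relative to GAPDH it was 2.46-fold higher in TIA1 RIP and past 2.5-fold in 2 of 4 pairs, both with TIA1 RIP 1. KLF5 was thus lower and KLF4 higher on total RNA 2 than on total RNA 1, by -2.38 and 2.12 on the log2 scale.

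TFAP2A and TFAP2C encode AP-2 factors, which act in the surface ectoderm and epidermis. TFAP2A (chr6:10393419-10419892, minus strand) had a level of -0.87 and -1.97 on TIA1 RIP arrays 1 and 2, and -1.50 and -2.33 on total RNA arrays 1 and 2. On total RNA 2 it was not well above background, so 1 of 2 total RNA arrays measured it, and the groups overlapped. The log2 ratio as measured was 0.50 ± 0.85 (SE, adjusted p = 0.890 from limma), and it turned to -0.12 with normexp background correction and to -0.11 with total RNA 2 at its detection limit. Relative to GAPDH the log2 enrichment was 1.81 and 0.51 against total RNA 1, of which the latter missed 2.5-fold, and at least 3.39 and 2.09 against total RNA 2.

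TFAP2C (chr20:55204362-55214339, plus strand) was the regulator with the most even enrichment relative to GAPDH among the 3 past the fold in all pairs. Its level was -0.66 and -0.44 on TIA1 RIP arrays 1 and 2, and -1.18 and -0.091 on total RNA arrays 1 and 2. The TIA1 RIP arrays lay between the total RNA arrays, and the log2 ratio was 0.083 ± 0.82 (SE, adjusted p = 0.984 from limma). Relative to GAPDH it was 4.42-fold higher in TIA1 RIP, with log2 enrichments of 1.69 and 1.71 against total RNA 1 and 2.57 and 2.59 against total RNA 2. It was the only regulator past 2.5-fold with an unadjusted p under 0.05 on that scale (19.5% of genes tested), and its adjusted p was 0.221 from limma. The adjusted p relative to GAPDH ran from 0.221 to 0.332 over the 9 regulators, and 0% of genes tested were past 2.5-fold with an adjusted p under 0.05. TFAP2C had 10 spots on each array, with an SD between spots of 0.072, 0.076 and 0.035 on TIA1 RIP 1, TIA1 RIP 2 and total RNA 1 and 0.22 over 9 spots on total RNA 2, so the difference of 1.09 between the total RNA arrays was larger than the spread between spots.

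**Figure D3:**
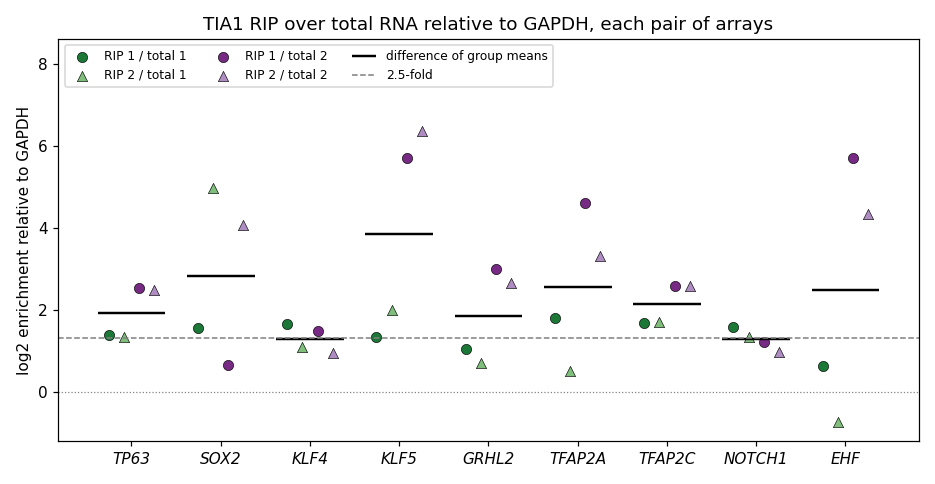
Log2 enrichment of each regulator in TIA1 RIP over total RNA relative to GAPDH, for each of the 4 pairs of a TIA1 RIP with a total RNA array (points), with the difference of group means (black bars) and 2.5-fold (dashed line). TP63, KLF5 and TFAP2C were above the dashed line in all 4 pairs, and the points of TFAP2A and EHF against total RNA 2 rest on levels not well above background there.

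GRHL2, a Grainyhead-like factor that keeps cell junction genes on in epithelia (chr8:102504667-102681954, plus strand), varied least. Its level was -0.33 and -0.47 on TIA1 RIP arrays 1 and 2, and -0.21 and -0.18 on total RNA arrays 1 and 2. Both TIA1 RIP arrays were lower than both total RNA arrays, by 0.12 to 0.29, and the log2 ratio was -0.21 ± 0.77 (SE, adjusted p = 0.952 from limma), with a sign that turned to 0.10 with the median of the array as the scale. Relative to GAPDH it was 3.61-fold higher on the means but past 2.5-fold only against total RNA 2, where the log2 enrichment was 2.99 and 2.65 compared with 1.06 and 0.71 against total RNA 1.

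EHF, an ETS factor of differentiating epithelia (chr11:34642640-34684835, plus strand), was lower on replicate 2 in both groups. Its level was 0.027 and -1.13 on TIA1 RIP arrays 1 and 2, and 0.58 and -2.53 on total RNA arrays 1 and 2. On total RNA 2 it was not well above background, so 1 of 2 total RNA arrays measured it. Both TIA1 RIP arrays lay below total RNA 1. The log2 ratio as measured was 0.42 ± 1.17 (SE, adjusted p = 0.933 from limma), and its sign turned to -0.33 with normexp background correction and to -0.28 with total RNA 2 at its detection limit. It was -1.13 against total RNA 1 alone. Relative to GAPDH the log2 enrichment against total RNA 1 was 0.62 and -0.73, under 2.5-fold in both TIA1 RIP arrays, and against total RNA 2 it was at least 4.29 and 2.93.

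NOTCH1, the receptor whose cleaved intracellular domain drives cells out of the basal layer, has 34 exons on the minus strand (chr9:139388885-139440500). Its level was 1.13 and 1.09 on TIA1 RIP arrays 1 and 2, and 0.72 and 3.05 on total RNA arrays 1 and 2. The TIA1 RIP arrays differed by 0.042 and lay between the total RNA arrays, which differed by 2.34. Over both arrays of each group the log2 ratio was -0.78 ± 0.99 (SE, adjusted p = 0.849 from limma). Against total RNA 1 alone it was 0.39, and against total RNA 2 alone it was -1.94 (adjusted p = 0.0433 from limma, in the same setting with a lone total RNA array). Relative to GAPDH, NOTCH1 was past 2.5-fold against total RNA 1 in both TIA1 RIP arrays (1.59 and 1.35 on the log2 scale) and in neither against total RNA 2 (1.22 and 0.97).

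Over the pairs, which share arrays, the count of regulators past 2.5-fold above GAPDH was set beside all genes. It was 7 of 9 for TIA1 RIP 1 and 5 of 9 for TIA1 RIP 2 against total RNA 1, where 46% and 40% of genes tested were past it. Against total RNA 2 it was 7 of 9 for each TIA1 RIP array, where 76.7% and 77.7% of genes were past it. KLF4 and NOTCH1 were past the fold with TIA1 RIP 1 against total RNA 1 and GRHL2 and EHF were not, and with TIA1 RIP 2 against total RNA 2 this was turned around. In all 4 pairs it was 3 of 9, TP63, KLF5 and TFAP2C, against 26.2% of genes tested.

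The total RNA arrays differed with the GC content of the transcript. Over 11556 genes with a transcript in the GENCODE annotation, the median of total RNA 2 minus total RNA 1 went from -2.07 in the lowest of 10 bins of genes by GC to 2.09 in the highest. Among the regulators, KLF5 (45.3% GC) was lower on total RNA 2 by 2.38 on the log2 scale, and EHF (40.6%) by at least 1.70, where the medians of genes of like GC were -0.74 and -1.69. KLF4 (55.9%) was higher by 2.12 and NOTCH1 (63.5%) by 2.34, beside medians of 0.91 and 2.09. TP63 (42.4%) was higher by 0.82 where that median was -1.40, and SOX2 (50.7%) by 2.86 where it was 0.38. GRHL2 (49.8%) was at 0.032 and TFAP2C (50.4%) at 1.09, beside medians of -0.15 and 0.38. SOX2 and TP63 lay farthest from the medians of their bins, KLF5 and KLF4 went the same way as their bins and farther, and GRHL2 and NOTCH1 lay nearest. Pearson's r of GC content with this difference was 0.72 over the 9 regulators, with TFAP2A and EHF at their measured values, and 0.70 over all genes, as a description of arrays whose probes share base composition. The log2 ratio against total RNA 1 had an r of -0.059 with GC content. The part of GC content in the log2 ratios of single genes was not tested.

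**Figure D4:**
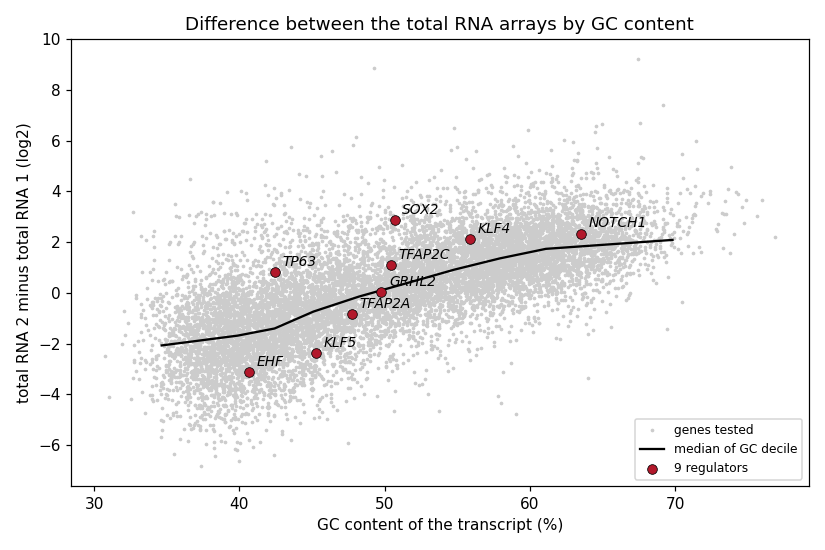
Total RNA 2 minus total RNA 1 (log2) against the GC content of the transcript (%) for genes tested (grey), the 9 regulators (red) and the median of each of 10 bins of genes by GC (line). KLF5 lies below and KLF4, SOX2 and TP63 lie above the line, NOTCH1 and GRHL2 lie near it, and EHF and TFAP2A, drawn at their measured values, were not well above background on total RNA 2.

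U content and motifs of the 3′UTR differed among the regulators. U made up 34.9% of the TP63 3′UTR of 2774 bases, more than in 82.8% of genes, 34.6% of that of TFAP2C (1270 bases) and 33.4% of that of KLF5 (1652 bases), the 3 highest among the 9. It was 33.2% for TFAP2A, 32.0% for EHF, 31.4% for KLF4, 29.5% for SOX2, 26.9% for NOTCH1 and 26.6% for GRHL2. The letters TTTTT, counted with overlaps on the transcript strand only, since RNA has a single strand, occurred in all 9, from 4 times in KLF4 and 6 times in SOX2 to 34 times in TFAP2C and 41 times in TP63. Among 3′UTRs cut to the same length, 85.4% (for KLF4) to 99.8% (for EHF) held such a run. ATTTA, which shares no base with it, occurred in all 9 as well, from 2 times in KLF4 and GRHL2 to 9 times in TFAP2A, and 72.2% to 98.3% of 3′UTRs of the same length held it. Over all genes, Pearson's r of 3′UTR U content with the log2 ratio was 0.082 against total RNA 1 and 0.62 against total RNA 2, and U content and GC content share bases. A match of letters is a description and not a binding site.

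GRHL2, TFAP2A and NOTCH1 had a second probe, and none of these was detected on both arrays of any group. The other NOTCH1 probe, with 10 spots, had a level of -3.67 and -3.46 on TIA1 RIP arrays 1 and 2, and -2.10 and -1.30 on total RNA arrays 1 and 2. It was well above background in 9 of 9 spots on total RNA 1 and in 1, 0 and 1 spots on TIA1 RIP 1, TIA1 RIP 2 and total RNA 2, so total RNA 1 was the only array that measured it. With the TIA1 RIP arrays at their detection limit, this probe was at least 2.29-fold higher on total RNA 1 than in TIA1 RIP. The NOTCH1 probe used above was higher in TIA1 RIP than on total RNA 1, by 0.41 and 0.37 on the log2 scale, so the probes went opposite ways against total RNA 1.

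The second GRHL2 probe had a level of -3.44 and -3.54 in TIA1 RIP and -2.84 and -2.97 in total RNA, was well above background on total RNA 1 only, and was at least 1.34-fold higher on total RNA 1 than in TIA1 RIP by the same rule. The second TFAP2A probe, listed under the transcript ENST00000478375, had a level of -3.13 and -3.35 in TIA1 RIP and -2.60 and -3.42 in total RNA. It was well above background on both replicate 1 arrays and on neither replicate 2 array.

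**Figure D5:**
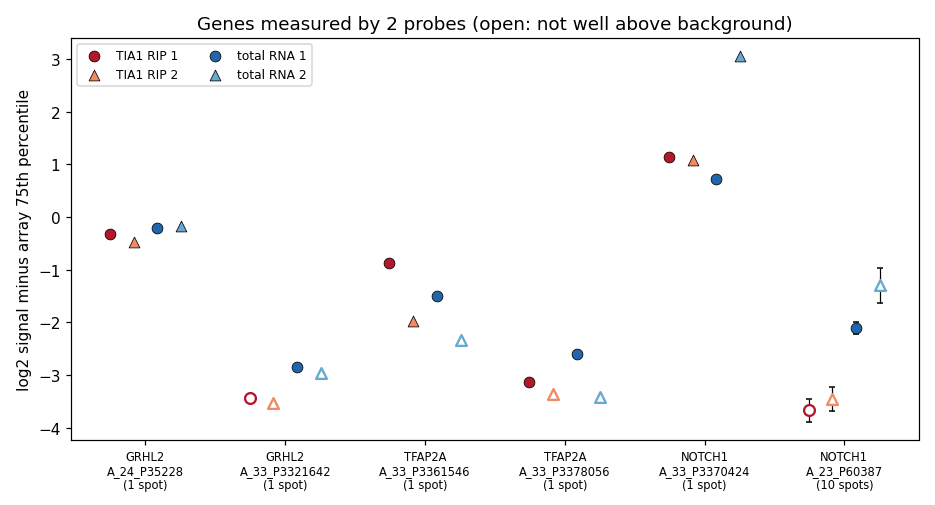
Level of each probe (log2 signal minus the 75th percentile of the array) for the genes with 2 probes, on TIA1 RIP (red) and total RNA (blue) arrays, with open symbols where the probe was not well above background and error bars for the SD between spots. The NOTCH1 probe with 10 spots was well above background on total RNA 1 only, and the other NOTCH1 probe on all 4 arrays.

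Relatives of the 9 regulators were read the same way. Of 33 listed genes of the same families, 22 were detected. Their median log2 ratio as measured was 0.36, beside -0.036 over all genes tested. In either direction, 0 passed the adjusted p of limma (0 at an unadjusted p under 0.05). Past 2.5-fold above GAPDH on the means were 20 of 22 (90.9%, beside 72.4% of genes tested), and 8 (36.4%, beside 26.2%) were past it in all 4 pairs. On total RNA 2, 10 of the 22 were not well above background, and on total RNA 1, 2 were not. The median and these counts thus rest in part on levels not measured. With such levels at the detection limit, the log2 ratios of these genes can only be the same or lower. The Krüppel-like repressor KLF3 and KLF10, a TGF-β response factor, had the highest log2 ratios as measured, but both were not well above background on total RNA 2, and with that array at its detection limit their log2 ratios were at least 0.82 and 1.40. The lowest were the receptors NOTCH2 (-0.74 ± 0.77, SE) and NOTCH3 (-1.05 ± 1.80). KLF3 was -0.042 against total RNA 1 alone, and NOTCH3 was 1.56 against total RNA 1 and -3.66 against total RNA 2. ELF5, SOX9 and TFAP2B were among the 11 not detected.

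Of 31 listed genes of Notch signalling outside the receptors, 26 were detected, with a median log2 ratio of 0.38 as measured. That median rests in part on levels not well above background, on total RNA 2 for 5 genes and on total RNA 1 for 2. With these levels at the detection limit, it can only be the same or lower. Past 2.5-fold above GAPDH on the means were 20 (76.9%, beside 72.4% of genes tested), and 13 (50%, beside 26.2%) were past it in all 4 pairs, with 5 of the 26 not well above background on total RNA 2. RBPJ, the DNA-binding partner of the Notch intracellular domain, was among those 5, with a log2 ratio of at least 1.34 at the detection limit of that array. ADAM10, a protease that cuts the receptor, had a log2 ratio of 1.39 ± 0.90 (SE), with 1 of its 2 probes detected on total RNA 2. The ligand JAG2 stood at -1.55 ± 0.85 and the target gene HES4 at -1.64 ± 0.87. None passed the adjusted p of limma, or an unadjusted p under 0.05.

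Of 30 other regulators of squamous epithelium, 24 were detected, with a median log2 ratio of -0.074 as measured. On total RNA 2, 3 of the 24 were not well above background. Past 2.5-fold above GAPDH on the means were 18 (75%, beside 72.4% of genes tested), and 7 (29.2%, beside 26.2%) were past it in all 4 pairs. TEAD1, the DNA-binding partner of YAP, had a log2 ratio of 1.18 ± 0.84 (SE). PRDM1, a repressor in maturing keratinocytes, ranked above it as measured, but was not well above background on total RNA 2. With that array at its detection limit, the log2 ratio of PRDM1 was at least 0.072. FOSL2, an AP-1 subunit, was lower at -2.71 ± 1.04 (adjusted p = 0.776 from limma). SMARCA4, an ATPase of the SWI/SNF remodelling complex, was the lowest, with a level of 2.42 and 2.46 in TIA1 RIP and 5.44 and 6.47 in total RNA. Its groups did not overlap, as for 21.7% of genes tested in that direction, its log2 ratio was -3.51 ± 0.81 (adjusted p = 0.591 from limma), and it was also lower than total RNA relative to GAPDH, at -1.45 on the log2 scale. At an unadjusted p under 0.05, 3 of the 24 were lower and 0 higher, beside 4.02% and 1.1% of genes tested.

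Of 15 listed regulators of columnar epithelium, 7 were detected, beside 13039 of 24154 genes on the array. Their median log2 ratio was -0.15 as measured, with 4 of the 7 not well above background on total RNA 2. GATA4, HNF4A, PDX1 and NKX2-1 were among those not detected. CDX1 was detected on all 4 arrays, with a level of 0.75 and 0.47 in TIA1 RIP and -0.044 and 2.28 in total RNA. GATA6 was also detected, but was not well above background on total RNA 2. HNF4G was detected in TIA1 RIP only and no ratio is given. SPDEF (-0.85 ± 0.96, SE) and CDX2 (-0.86 ± 0.86) had the lowest log2 ratios. CDX2, an intestinal homeobox factor, had a level of 1.01 and -0.28 in TIA1 RIP and 0.87 and 1.59 in total RNA.

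FAS, an mRNA the study names as a known TIA1 target, was read as a reference. Its mean level over 3 probes was 0.50 and 0.74 in TIA1 RIP and -0.67 and -1.73 in total RNA, so both TIA1 RIP arrays were higher. Over the probes the log2 ratio was 1.82 ± 0.82 (SE, adjusted p = 0.776 from limma), and against total RNA 1, where all 3 probes were detected, it was 1.29. Only 1 of the 3 probes was well above background on total RNA 2, and that probe had a log2 ratio of 0.13 over both arrays of each group. For that probe, TIA1 RIP 1 and 2 differed from total RNA 1 by 0.92 and 1.21 and from total RNA 2 by -0.96 and -0.67. The higher mean level of FAS in TIA1 RIP than on total RNA 2 thus rests on probes not measured on that array.

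Among 72 detected genes of the family, Notch and squamous regulator lists, the gene with the closest pattern to a regulator was found by the Euclidean distance over the 4 arrays, each gene centred on its own mean. RUNX1 was closest to TP63 (distance 0.13 on the log2 scale) and OVOL2 to TFAP2C (0.28). JAG1 was closest to GRHL2 (0.37), MAML1 to TFAP2A (0.47), PITX1 to KLF4 (0.56), RBPJ to KLF5 (0.59) and PSENEN to NOTCH1 (0.62). The closest gene to EHF was farther off, KLF6 at 1.12. TFAP2A, EHF, MAML1 and RBPJ were not well above background on total RNA 2, and with 4 arrays these distances describe the arrays only.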

How the data were processed

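RNA was measured on 4 single-colour Agilent arrays, 2 of TIA1 RIP and 2 of total RNA. The authors scanned the arrays and deposited Agilent Feature Extraction 10.7.1.1 output, in which each spot has an intensity on a linear scale after background subtraction, and flags for detection, saturation and uneven spots. The deposited intensities are not normalized between arrays. The authors' methods name GeneSpring and enrichment against GAPDH, and no test. Array files name GRCh37. The number of arrays limits the precision.

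Flagged spots (299 to 382 of 58717 an array) were left out, log2 intensity was set relative to the 75th percentile of the array, and spots of a probe were averaged. None of the spots was saturated. Probes with a share of at least 0.5 of their spots well above background on both arrays of a group were kept (20106), and those of a symbol were averaged. Symbols came from RefSeq and GENCODE and were found for 34510 of 50599 probes (68.2%). Coordinates and transcripts are from GENCODE on GRCh37. limma 3.58.1 (R 4.3.3) tested TIA1 RIP against total RNA over 13039 genes, 13038 without GAPDH relative to GAPDH, and 20099 probes with a value on every array, with Benjamini-Hochberg adjustment. The script was tested on simulated data. For a level not well above background, the detection limit was the higher of the lowest signal well above background on that array and its own signal, and bounds used measured arrays on the other side. The rule for named genes took the 9 regulators, the references, the 2 highest and 2 lowest detected genes of each list, and the closest patterns, and a few genes it names are not reported here. Genes in the account of replicates were named after their values were seen, as were undetected genes and markers. Regulators and lists were chosen with earlier results of these data known. Figures were drawn with matplotlib 3.10.9.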

Additional observations from a re-analysis of the deposited data

How the results depend on the processing

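Of 230 values of the 9 regulators under the alternatives, 199 kept their direction and their side of the threshold, 23 changed sign (11 of them by leaving out an array) and 8 passed the adjusted p. All 8 came without total RNA 1, where 73.1% of genes tested were past 2.5-fold and the adjusted p relative to GAPDH and 29.9% were past it on the 75th percentile scale. Part of the 199 could not change direction. Each regulator was read from 1 kept probe, so taking the brightest probe gave the same log2 ratio. The replicate block and the filter for detection on all 4 arrays also left each log2 ratio they covered as it was. Relative to GAPDH, another scale of the array cancels. The other values that changed are as follows, and the cause was not tested. With normexp, TFAP2A was at -0.12 and EHF at -0.33 on the 75th percentile scale. The median of all genes moved from -0.036 to 0.27 with the median of the array or the 75th percentile of probes detected on all 4 arrays as the scale, and there TP63 (0.18 and 0.18) and GRHL2 (0.10 and 0.10) changed sign. It was 0.26 with quantile normalization and -0.13 with normexp. Relative to GAPDH, quantile normalization gave 33.7% of genes and 4 regulators past 2.5-fold, with KLF4 at -0.12 and NOTCH1 at -0.075. With all genes' median as the reference, 12.5% of genes and 1 regulator were past it, with TP63 at -0.10, KLF4 at -0.73, GRHL2 at -0.18 and NOTCH1 at -0.75. Without a filter on detection, 54 probes passed the adjusted p.

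The labels do not say that the number of an array marks a shared culture or day. Deviations of same-numbered arrays from their group means had a Pearson's r of 0.45 over genes tested, so they moved together in part. The cause was not tested. A fit with the number as a replicate block put 57 genes above and 299 below total RNA at an adjusted p under 0.05, and 647 probes passed, with 0 of the regulators among the genes. The slide as a block was not run, since all arrays were on 1 slide.

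Leaving out 1 array at a time left a group with a lone array, taken to vary like the other group. Genes higher past the adjusted p ranged from 0 to 1849, genes lower from 0 to 2051 and probes from 0 to 6933. Genes past 2.5-fold relative to GAPDH ranged from 42.3% to 77.5%, with 0 to 9532 also past the adjusted p. The high counts all came without total RNA 1, and the 42.3% came without total RNA 2. On the 75th percentile scale TP63 ranged from -0.54 to 0.28, SOX2 from -1.05 to 2.57, KLF4 from -1.82 to 0.30, TFAP2A from -0.048 to 1.04, TFAP2C from -0.46 to 0.63, NOTCH1 from -1.94 to 0.39 and EHF from -1.13 to 1.98. KLF5 stayed at or above 0.60 and GRHL2 between -0.28 and -0.14. Relative to GAPDH, EHF ranged from -0.055 to 5.02. Signal over background limits total RNA 2 most, where 26.1% of genes tested had no probe well above background, among them TFAP2A, EHF, KLF3, KLF10, RBPJ, PRDM1 and BNC1, and it limits the second probes and FAS.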
